A study of Homo sapiens with 14 samples.

Results

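The genes described are 10 that carry glucose into the cell and through glycolysis: SLC2A1, SLC2A3, HK2, PFKP, ALDOA, PGK1, ENO1, PKM, LDHA and PDK1. They were taken by name from a list that was chosen with earlier results of these data known. They are 10 of 39293 gene identifiers measured. All 10 of 10 passed the filter on low counts, among 15756 genes tested. RNA was sequenced from MOLM14, an established line of human acute myeloid leukaemia whose FLT3 receptor carries an internal tandem duplication, during resistance to gilteritinib, an inhibitor of FLT3 and AXL. FGF2 early cells (4 libraries) and FL early cells (4 libraries) were early gilteritinib-resistant MOLM14 kept with FGF2 or with FL, the ligand of FLT3, at 10 ng/mL, and they received 100 nM gilteritinib for 48 hours. Untreated parental MOLM14 (3 libraries) received neither drug nor ligand. The acute arm (3 libraries) was parental MOLM14 given 100 nM gilteritinib for 48 hours with no ligand (drug alone), with FGF2 or with FL, 1 library each. The tests treated these 3 libraries as 1 group, so the spread of this arm includes differences between ligands and is not that of replicates. All groups derive from a single cell line. The early cultures are labelled by flask, and no label says that the flasks were selected independently or that the parental libraries were separate cultures, so p-values may measure only the spread between these samples.

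Glycolysis turns glucose into pyruvate in the cytosol. Glucose enters through facilitative transporters, is trapped as a phosphate by hexokinase and is committed to breakdown by phosphofructokinase; aldolase then splits the sugar, and the later enzymes recover ATP and NADH. Pyruvate is either reduced to lactate by lactate dehydrogenase, which regenerates NAD+, or enters mitochondria through the pyruvate dehydrogenase complex, which pyruvate dehydrogenase kinases switch off. In leukaemia cells with mutant FLT3, signalling from the receptor is known to sustain glucose uptake and glycolysis, and the transcription factors MYC and HIF-1 act on many of these genes.

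Total estimated counts per library ran from 25723575 to 33075041. Levels are in CPM (each library's counts brought to the same total, using TMM factors of 0.9587 to 1.072), and changes are log2 fold changes ± standard error with an adjusted p from edgeR's quasi-likelihood test across all genes tested, called below 0.05. The acute libraries had 16.3% to 19.7% of their counts on ribosomal protein genes, against 10.8% to 13.03% in the other libraries, and 3.52% to 3.91% on mitochondrially encoded genes, against 4.26% to 5.31%. The part of these shares in the results was not tested. Of 10 myeloid markers none was at 0 in every library, although CD14 did not exceed 0.83 CPM. Their summed level was 1087 to 1095 CPM in parental, 1671 to 1867 in acute, 1047 to 1097 in FGF2 early and 1495 to 2357 in FL early libraries. In the acute arm 7 of the 10 lay above every parental library and 1 below, where 33.5% of all genes tested lay below. The share of all genes lying above is not given here, so this count only describes the markers. CSF1R went from 13.4 to 142.1 CPM and ITGAM from 27.0 to 90.7 CPM on average from parental to acute cells, and MPO from 68.0 to 4.91 CPM. The part of these markers in the glycolysis results was not tested. Summed T cell markers stayed between 0.14 and 1.35 CPM, B cell markers between 0.26 and 0.83, epithelial markers between 0.10 and 0.85 and fibroblast markers between 0.13 and 2.09, with KRT19 and COL3A1 at 0 throughout; the 3 erythroid markers had no count, and megakaryocyte markers reached 1.14 CPM with PF4 at 0. FL early replicate 1 stood apart: it was the lowest library of its arm for 10 of 10 glycolysis genes, while it was the lowest for 28.6% of all genes tested.

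Promoter sequence is shown for 5 of the genes: the 4 with the largest changes under acute drug (LDHA, PGK1, ENO1 and PKM) and HK2, which did not pass the test there. Each is the 250 bases upstream of the first transcription start listed by RefSeq (GRCh38.p14), printed 5′ to 3′ on the gene's strand. Capitals mark every ACGTG or GCGTG on either strand, the core letters of the element that HIF-1 binds; CACGTG, the E-box letters that MYC binds, contains ACGTG. The LDHA window lies at chr11:18394313-18394562 on the plus strand and the PGK1 window at chrX:78103998-78104247 on the plus strand. The ENO1 window lies at chr1:8878687-8878936 on the minus strand, the PKM window at chr15:72231191-72231440 on the minus strand and the HK2 window at chr2:74833877-74834126 on the plus strand.
LDHA: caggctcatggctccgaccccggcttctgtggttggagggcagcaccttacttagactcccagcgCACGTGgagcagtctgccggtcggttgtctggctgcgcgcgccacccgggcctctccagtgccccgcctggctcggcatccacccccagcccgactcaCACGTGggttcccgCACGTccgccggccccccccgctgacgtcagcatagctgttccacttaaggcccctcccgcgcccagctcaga
PGK1: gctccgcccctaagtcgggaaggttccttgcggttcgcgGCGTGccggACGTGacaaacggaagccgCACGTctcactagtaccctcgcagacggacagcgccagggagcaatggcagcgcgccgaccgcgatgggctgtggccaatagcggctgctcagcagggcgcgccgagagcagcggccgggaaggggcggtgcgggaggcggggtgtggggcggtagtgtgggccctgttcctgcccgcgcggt
ENO1: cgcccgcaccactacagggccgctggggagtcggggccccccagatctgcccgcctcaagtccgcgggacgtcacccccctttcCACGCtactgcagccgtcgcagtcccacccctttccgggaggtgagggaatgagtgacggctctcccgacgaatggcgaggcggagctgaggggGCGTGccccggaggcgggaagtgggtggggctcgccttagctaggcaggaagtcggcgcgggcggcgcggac
PKM: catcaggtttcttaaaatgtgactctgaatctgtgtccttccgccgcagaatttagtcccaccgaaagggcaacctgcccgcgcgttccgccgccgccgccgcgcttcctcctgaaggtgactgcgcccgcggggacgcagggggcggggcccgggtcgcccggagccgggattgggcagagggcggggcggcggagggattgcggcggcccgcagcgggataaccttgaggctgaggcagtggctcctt
HK2: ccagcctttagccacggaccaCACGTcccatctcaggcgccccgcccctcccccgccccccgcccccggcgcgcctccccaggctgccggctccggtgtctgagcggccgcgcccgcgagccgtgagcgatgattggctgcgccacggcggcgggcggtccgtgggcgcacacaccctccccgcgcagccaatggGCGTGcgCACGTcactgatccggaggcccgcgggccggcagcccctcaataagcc
The LDHA window held 5 ACGTG matches counted over both strands, 4 of them within 2 copies of the E-box CACGTG, which reads the same on both strands. PGK1 and HK2 each had 2 ACGTG and 1 GCGTG, ENO1 had 2 GCGTG, and neither core was present in these letters for PKM. RefSeq listed 17 windows for 9 of the 10 genes, SLC2A3 being the gene without one, and 12 windows in 7 genes held either core. Of all 35116 windows of the same length, 43.2% held either core (18.5% ACGTG, 32.2% GCGTG) and 6.34% held CACGTG, so these letters are common and describe the sequence only. CACGTG was found in 3 windows, 1 each of HK2, ALDOA and LDHA. For HK2 this was the second listed window, not printed here, which held 4 ACGTG, 2 GCGTG and 2 copies of CACGTG.

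After 48 hours of gilteritinib the 10 genes were lower, HK2 excepted. This does not hold for every isoenzyme of the same steps, as PFKL and HK1 below show. The test called 9 of 10 lower in the acute than in the parental arm and none higher, where 30.3% of all genes tested were called lower and 32.3% higher. The median change was −1.21 on the log2 scale, against 0.07 over all genes tested. Together the 10 genes took 0.769% ± 0.005 (SD, n = 3) of the counts in parental libraries and 0.282% ± 0.029 (SD, n = 3) in acute ones. For the same 9 genes every acute library lay below every parental library, and 33.5% of all genes tested were separated in that direction. Levels are relative to the other RNA of the same library, so a loss shared by all genes would not be seen, and fewer cells expressing a gene cannot be told apart from less of its RNA per cell.

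**Figure D1:**
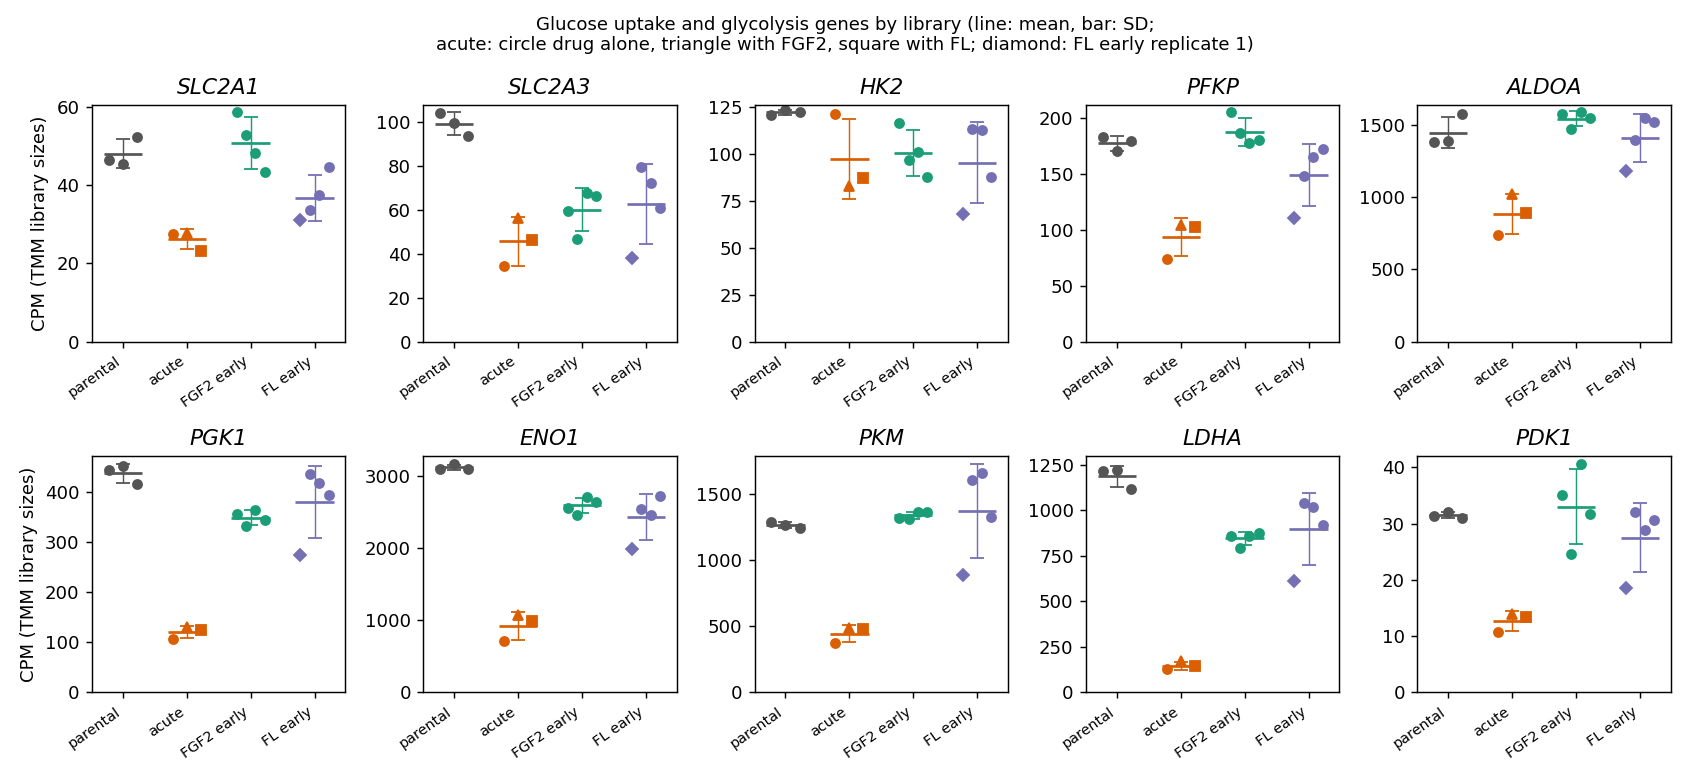
Level of each gene in every library (CPM with TMM factors, linear axis from 0); points are libraries by arm, the horizontal line is the arm mean, the error bar its SD, and the diamond FL early replicate 1. The acute libraries of LDHA sit between 128 and 172 CPM, below all 11 others, while those of HK2 overlap the other arms.

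At the uptake step, SLC2A1, which encodes the glucose transporter GLUT1, stood at 46.4, 45.5 and 52.4 CPM in parental replicates 1 to 3 and at 27.5, 27.8 and 23.3 CPM with acute drug and no ligand, FGF2 or FL. The acute libraries were all lower, and the change was −0.88 ± 0.14 (adjusted p = 7.49e-05). SLC2A3, which encodes the high-affinity transporter GLUT3, had 104.2, 99.6 and 93.7 CPM in parental cells and 34.2, 56.5 and 46.4 CPM in the acute libraries in the same order. It fell by 1.12 ± 0.23 on the log2 scale (adjusted p = 0.000835). SLC2A14 is a near-identical copy of SLC2A3, and reads could be assigned to the wrong copy of the pair; it rose from 5.14 ± 0.30 to 18.7 ± 3.40 CPM (SD, n = 3 each), a change of 1.86 ± 0.27 (adjusted p = 2.82e-05).

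At the early phosphorylation steps the genes differed. HK2, the hexokinase that can sit on the mitochondrial outer membrane, had 120.6, 123.2 and 122 CPM in parental libraries and 121.3, 82.8 and 87.0 CPM with drug alone, with FGF2 and with FL. The library with drug alone lay within the parental range and both ligand libraries lay under it, and the change of −0.33 ± 0.18 was not called (adjusted p = 0.127). HK2 was called lower under 3 of 22 alternatives. These were without the drug-alone library (−0.52, adjusted p = 0.024), without FL early replicate 1 (adjusted p = 0.0415) and with only the acute and parental arms in the fit (−0.37, adjusted p = 0.0475). PFKP, the platelet-type phosphofructokinase, went from 169.8 to 182.7 CPM in parental libraries to 73.8, 104.5 and 102.4 CPM in acute ones, a change of −0.92 ± 0.15 (adjusted p = 9.99e-05). ALDOA, the aldolase that splits fructose 1,6-bisphosphate, ranged from 1383 to 1574 CPM in parental and from 742 to 1022 CPM in acute libraries, and its change of −0.71 ± 0.12 (adjusted p = 0.000106) was the smallest of the 9 called.

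Among the genes described, PGK1, ENO1 and PKM fell more than those of uptake and the earlier steps. Other enzymes of the pathway did not all keep this order. GPI, an isomerase of the early steps, went from 642.9 to 261.1 CPM on average from parental to acute cells. GAPDH, which acts just before PGK1, went from 4430 to 2748 CPM. PGAM1, between PGK1 and ENO1, did keep it, going from 1021 to 285.5 CPM. PGK1, phosphoglycerate kinase, which makes the first ATP of glycolysis, had 442.9, 450.6 and 415.9 CPM in parental libraries and 107.2, 129.6 and 125.2 CPM with drug alone, with FGF2 and with FL, a change of −1.86 ± 0.14 (adjusted p = 3.91e-08). ENO1, enolase, was at 3090, 3155 and 3098 CPM and then at 706.8, 1069 and 988.7 CPM, a change of −1.76 ± 0.14 (adjusted p = 7.44e-08). PKM, pyruvate kinase, was at 1290, 1264 and 1244 CPM and then at 372.2, 486.8 and 476.8 CPM, a change of −1.51 ± 0.18 (adjusted p = 4.41e-06). For PGK1, ENO1 and PKM the drug-alone library was the lowest. The counts are per gene, so the M1 and M2 splice forms of PKM were not told apart.

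LDHA, the lactate dehydrogenase subunit that favours lactate production, had the largest change of the 10. Its level was 1216, 1222 and 1118 CPM in parental libraries and 128.2, 171.6 and 143.1 CPM with drug alone, with FGF2 and with FL. That left 12.5% of the parental mean, a fall of 3.0 ± 0.17 on the log2 scale or 8.03-fold (adjusted p = 3.08e-09). PDK1, the kinase that inhibits pyruvate dehydrogenase, fell from 31.0 to 32.1 CPM in parental libraries to 10.8, 14.02 and 13.4 CPM, a change of −1.31 ± 0.20 (adjusted p = 5.42e-05). Leaving out any of the libraries that entered this comparison left at least 9 of 10 genes called lower. PGK1, ENO1, LDHA and ALDOA have processed copies in the genome that can take or lend reads, so their levels carry that uncertainty.

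Within the acute arm, the ligands are compared as values with no test, since each state has 1 library. Levels with FGF2 were above those with drug alone for SLC2A3 (1.65 times), ENO1 (1.51 times), PFKP (1.42 times), ALDOA (1.38 times), LDHA (1.34 times), PKM (1.31 times), PDK1 (1.30 times) and PGK1 (1.21 times). With FL the same 8 genes stood at 1.12 times (LDHA) to 1.40 times (ENO1) the drug-alone level. HK2 was lower with either ligand, at 0.68 times with FGF2 and 0.72 times with FL, and SLC2A1 was at 1.0 times and 0.85 times. With either ligand LDHA was at most 171.6 CPM, against at least 1118 CPM in parental cells.

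In early resistant cells, exposed to the same drug, the means ran from 62% (SLC2A3) to 107% (PKM) of the parental mean, against 12.5% (LDHA) to 79.6% (HK2) in the acute arm. The acute libraries are the same as in acute vs parental, so the results of these comparisons are not independent. The mean over both early arms was called higher than the acute arm for 8 of 10 genes and lower for none, where 32.1% of all genes tested were called higher and 33.9% lower. The median change was 1.04, against −0.04 over all genes tested. LDHA rose 5.90-fold (2.56 ± 0.15, adjusted p = 4.62e-09), to 860.8, 793.4, 856 and 872.5 CPM in FGF2 early replicates 1 to 4 and 608.8, 1042, 1015 and 917.9 CPM in FL early replicates 1 to 4. All 8 early libraries were above all 3 acute ones, as they were for each of the 8 called genes and for 25.2% of all genes tested. PKM rose by 1.60 ± 0.16 (adjusted p = 6.45e-07), PGK1 by 1.59 ± 0.12 (adjusted p = 4.48e-08) and ENO1 by 1.44 ± 0.12 (adjusted p = 1.2e-07).

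The other 4 called genes rose less. PDK1 rose by 1.24 ± 0.18 (adjusted p = 2.16e-05), PFKP by 0.83 ± 0.13 (adjusted p = 5.54e-05), ALDOA by 0.74 ± 0.10 (adjusted p = 1.54e-05) and SLC2A1 by 0.72 ± 0.12 (adjusted p = 9.17e-05). The exceptions were the other glucose transporter and the hexokinase. SLC2A3 had 59.3, 46.6, 67.9 and 66.5 CPM in FGF2 early and 38.1, 79.7, 72.3 and 61.0 CPM in FL early libraries, overlapping the acute range, and its change of 0.43 ± 0.20 was not called (adjusted p = 0.0706). It was called higher without FL early replicate 1 (0.57, adjusted p = 0.00416), without FGF2 early replicate 2 (0.53, adjusted p = 0.0302) or without the acute FGF2 library (0.63, adjusted p = 0.0298), and also with DESeq2 (0.44, adjusted p = 0.0427) or against the drug-alone library only (0.87, adjusted p = 0.0344). On leaving out 1 library its change ran from 0.26 to 0.63. HK2 had 116.4, 96.8, 100.9 and 87.4 CPM in FGF2 early and 68.0, 113, 112.3 and 87.3 CPM in FL early libraries, around the acute values, with a change of 0.01 ± 0.15 (adjusted p = 0.957). Its sign turned under 6 of 23 alternatives, among them upper quartile scaling.

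**Figure D2:**
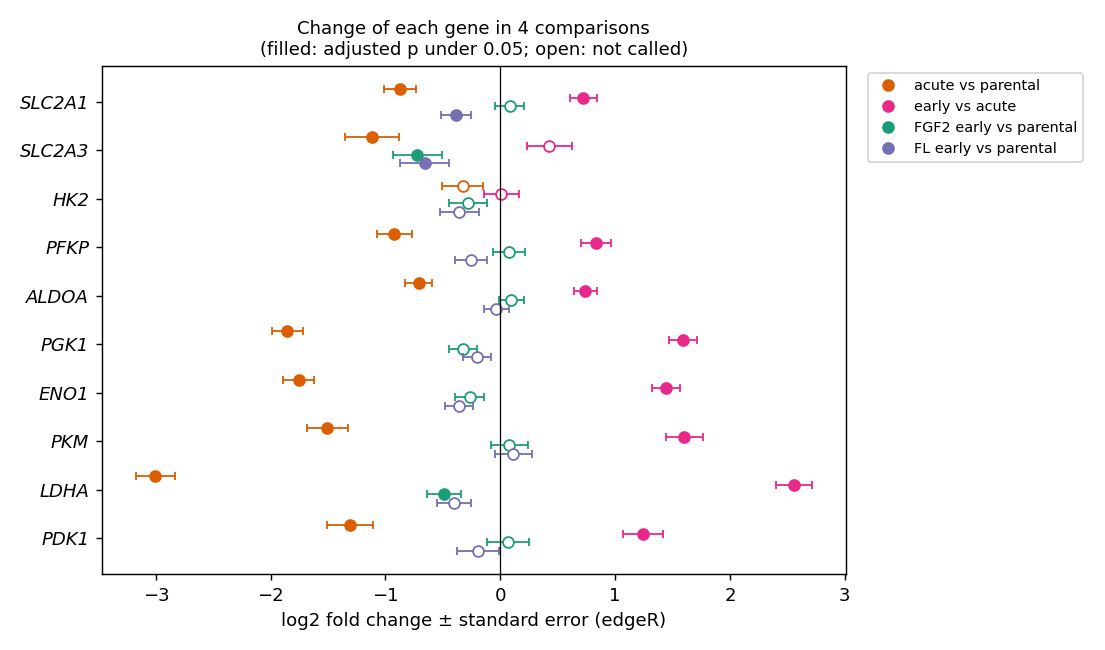
Log2 fold change of each gene with its standard error in acute vs parental, early vs acute, FGF2 early vs parental and FL early vs parental; filled points were called and open ones were not. LDHA is at −3.0 in acute vs parental and 2.56 in early vs acute, HK2 is at 0.01 in early vs acute, and the changes of the early lines from parental lie between −0.72 and 0.11.

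When the acute library with the same ligand was set beside the early mean, as values with no test, LDHA again had the highest ratio. For FGF2 the early mean was 4.93 times the acute level for LDHA, 2.75 times for PKM, 2.69 times for PGK1 and 2.42 times for ENO1, but 1.06 times for SLC2A3 and 1.21 times for HK2. For FL the ratios were 6.26 for LDHA, 3.04 for PGK1, 2.87 for PKM and 2.45 for ENO1, but 1.35 for SLC2A3 and 1.09 for HK2. PDK1 stood at 2.35 times its acute level in FGF2 early and 2.05 times in FL early cells, and SLC2A1 at 1.83 and 1.58 times.

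Against untreated parental cells, which it shares with the acute comparison as control, the early average was called lower for 3 genes and higher for none, where 16.1% of all genes tested were called lower and 13.7% higher. SLC2A3 was lower by 0.69 ± 0.19 on the log2 scale (adjusted p = 0.0132), which is 62% of the parental mean. LDHA was lower by 0.45 ± 0.13 (adjusted p = 0.0187), at 73.5% of the parental mean, and ENO1 by 0.31 ± 0.11 (adjusted p = 0.0434), at 80.5%. For these 3 and for HK2 (−0.32 ± 0.15, adjusted p = 0.117) every early library lay below every parental one, as did 13.3% of all genes tested. The remaining 6 were not called: PKM (0.10 ± 0.14), ALDOA (0.03 ± 0.10), PDK1 (−0.06 ± 0.16), PFKP (−0.09 ± 0.12), SLC2A1 (−0.15 ± 0.11) and PGK1 (−0.26 ± 0.11, adjusted p = 0.0818).

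These calls rest on few libraries. Without parental replicate 1 or parental replicate 2 none of the 3 was called: SLC2A3 had an adjusted p of 0.0598 and 0.0515, LDHA of 0.0772 and 0.0824, and ENO1 of 0.116 and 0.137. ENO1 also lost its call on leaving out any 1 of the FGF2 early libraries, FL early replicate 1 or 3, parental replicate 3 or the acute FL library (adjusted p from 0.053 to 0.103), under 12 of 23 alternatives in all. PGK1 gained one without FL early replicate 1 (−0.19, adjusted p = 0.0366) or FL early replicate 2 (−0.30, adjusted p = 0.0494). The share of counts held by the 10 genes was 0.766% to 0.774% in parental libraries, 0.699% to 0.743% in FGF2 early ones and 0.724% to 0.739% in FL early replicates 2 to 4, with 0.513% in FL early replicate 1.

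The flasks of the FL early line were uneven. In FL early replicate 1 the genes stood between 38.4% (SLC2A3) and 81.9% (ALDOA) of the parental mean, with LDHA at 51.4% and PKM at 70%. In FL early replicates 2 to 4 the means ran from 71.6% (SLC2A3) to 121% (PKM), with LDHA at 83.6% and PGK1 at 95.1%. PKM in those flasks was 1604, 1659 and 1326 CPM, all above the parental libraries, against 886.6 CPM in replicate 1. FGF2 early replicate 2 was the lowest of its arm for 7 of 10 genes, and for 25.1% of all genes tested.

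**Figure D3:**
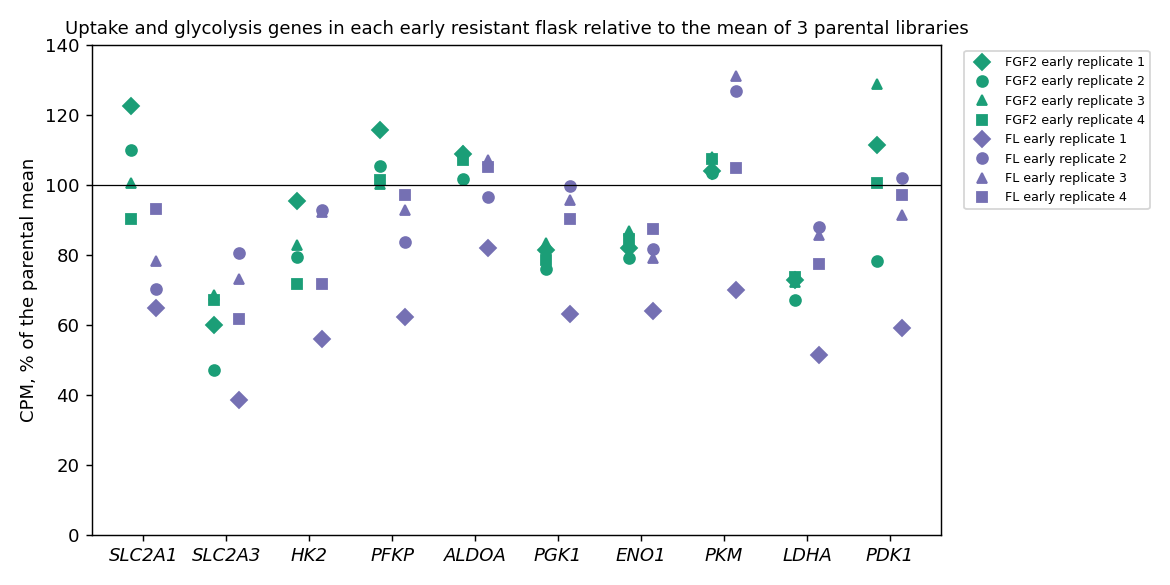
Level of each gene in every early flask as a percent of the parental mean. Points are libraries and the line marks the mean of the parental libraries. FL early replicate 1 is the lowest FL flask for all 10 genes, from 38.4% for SLC2A3 to 81.9% for ALDOA.

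Taken line by line, FGF2 early cells were called lower than parental for 2 genes, with 17.1% of all genes tested called lower: SLC2A3 (−0.72 ± 0.21, adjusted p = 0.0207) and LDHA (−0.49 ± 0.15, adjusted p = 0.0225). Neither was called without FGF2 early replicate 2 (adjusted p = 0.062 and 0.0609), parental replicate 1 (0.0682 and 0.0717) or parental replicate 2 (0.0584 and 0.0763). In this line PGK1 (−0.32 ± 0.12, adjusted p = 0.0597) gained a call without FL early replicate 1 (adjusted p = 0.00396), and ENO1 (−0.27 ± 0.12, adjusted p = 0.119) without the drug-alone acute library (adjusted p = 0.0296). PGK1 was also called lower with only the arms compared in the fit (adjusted p = 0.000664), with DESeq2 (0.0354) and with upper quartile scaling (0.0473). ENO1 was also called lower with only those arms (0.0016) and with the replicate number added to the fit (0.0352). FL early cells were called lower for 2 genes, with 9.76% of all genes tested called lower: SLC2A1 (−0.38 ± 0.13, adjusted p = 0.0471) and SLC2A3 (−0.66 ± 0.21, adjusted p = 0.0439). Neither was called without FL early replicate 1, at −0.30 (adjusted p = 0.119) and −0.47 (adjusted p = 0.0712), and each lost its call under 12 and 13 of 23 alternatives. Leaving out any 1 parental library ended both calls. ENO1 (−0.36 ± 0.12, adjusted p = 0.0549) was called lower under 7 of 23 alternatives and LDHA (−0.40 ± 0.15, adjusted p = 0.0666) under 3. Those that leave out a library were, for ENO1, without FL early replicate 4 (adjusted p = 0.0387), the drug-alone acute library (0.00991) or the acute FGF2 library (0.0426) and, for LDHA, without FL early replicate 2 (0.0423). SLC2A1 also lost its call without FL early replicate 2 or 3, FGF2 early replicate 2 or 3 or the acute FGF2 library (adjusted p from 0.056 to 0.0996), and SLC2A3 without FL early replicate 4, FGF2 early replicate 1, 3 or 4 or the acute FL library (adjusted p from 0.0525 to 0.0712). Both lines were compared with the same 3 parental libraries.

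The early lines were compared directly, and SLC2A1 was the only gene of the 10 called: it was higher in FGF2 early cells, with 4% of all genes tested called higher. Its level was 58.9, 52.8, 48.4 and 43.4 CPM in FGF2 early and 31.2, 33.7, 37.6 and 44.8 CPM in FL early replicates 1 to 4. The arms overlap, since FL early replicate 4 was above FGF2 early replicate 4. The difference was 0.47 ± 0.12 (adjusted p = 0.0195), a 1.38-fold higher level; it was not called without FGF2 early replicate 1 (0.39, adjusted p = 0.0649) or FL early replicate 2 (0.42, adjusted p = 0.063). PFKP was 177.4 to 205 CPM in FGF2 early and 110.2 to 171.8 CPM in FL early libraries with no overlap, as for 7.84% of all genes tested in that direction, and its difference of 0.33 ± 0.13 was not called (adjusted p = 0.107) but was without FL early replicate 4 (adjusted p = 0.0473). PGK1 was called lower in FGF2 early cells without FL early replicate 1 (−0.25, adjusted p = 0.0315).

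The other enzymes of the pathway, a list of 14 that were all tested, moved with these genes in part. In acute vs parental 7 were called lower and 3 higher, with a median of −0.72, and in early vs acute 8 were called higher and 3 lower, with a median of 0.61. The shares over all genes tested were 30.3% lower and 32.3% higher in the first, and 32.1% higher and 33.9% lower in the second. PGAM1, phosphoglycerate mutase, which acts between PGK1 and ENO1, went from 1021 ± 18.1 to 285.5 ± 39.7 CPM (SD, n = 3 each), a change of −1.84 ± 0.14 (adjusted p = 3.77e-08), and rose by 1.55 ± 0.12 in early cells. LDHB, the lactate dehydrogenase subunit that favours pyruvate, fell by 1.26 ± 0.11 (adjusted p = 1.99e-07), rose by 0.88 ± 0.09 and stayed below parental by 0.38 ± 0.09 (adjusted p = 0.00518). LDHA levels in the acute arm were 12.5% of parental, while LDHB went from 1153 ± 81.1 to 481.3 ± 82.4 CPM. GAPDH, which is often used as a reference gene and was picked out after its values were seen, was also called lower with acute drug, by 0.69 ± 0.13 (adjusted p = 0.000296).

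Relatives of the members were not all alike. GPI, the isomerase between hexokinase and phosphofructokinase, was 303.7 to 330.3 CPM in FGF2 early libraries and 502.3 to 808.7 CPM in FL early ones, with no overlap, a difference of −1.07 ± 0.14 (adjusted p = 0.000244); parental libraries had 624 to 669 CPM. HK1, the widely expressed hexokinase, was 20.9, 16.6, 14.4 and 23.9 CPM in FGF2 early and 26.2, 94.7, 81.1 and 21.95 CPM in FL early replicates 1 to 4, so that FL early replicates 2 and 3 lay above the parental range of 51.2 to 57.4 CPM and replicates 1 and 4 below it. The difference between the lines was −1.56 ± 0.38 (adjusted p = 0.0162). HK3, a hexokinase of myeloid cells, was higher in early than in parental cells by 1.96 ± 0.47 (adjusted p = 0.00681), from 1.65 CPM to 4.23 and 9.84 CPM on average in FGF2 early and FL early.

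Levels of different genes were compared per kilobase of transcript, taking the median length of the gene's transcripts in GENCODE 29 and the range its shortest and longest ones give. ENO1 was the main enolase, at 1748 CPM per kilobase in parental cells against 5.16 for ENO3 and 2.91 for ENO2, and ALDOA the main aldolase of the pair compared, at 934.1 against 39.6 for ALDOC. In the acute arm ENO1 was still at 517 CPM per kilobase and ALDOA at 570.9. HK2 stood at 22.1 CPM per kilobase in parental and 18.2 in FGF2 early cells, above HK1 at 14.1 and 4.92 over the whole length range. FL early cells are left out of this comparison, since their flasks differed widely in HK1.

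Steps on either side of glycolysis were called in several directions under acute drug. Among 5 tested genes for lactate and pyruvate transport at the plasma membrane (carriers and their partner proteins), 4 were called lower and none higher in acute vs parental, and all 5 higher in early vs acute. SLC16A1, the carrier MCT1, fell from 143.8 to 32.97 CPM on average (−2.12 ± 0.13, adjusted p = 5.68e-09), and EMB, a membrane partner of such carriers, by 1.56 ± 0.07 (adjusted p = 3.43e-10). In early vs parental SLC16A1 was lower (−0.34 ± 0.10, adjusted p = 0.0212), whereas SLC16A3, the carrier MCT4, was higher (0.35 ± 0.12, adjusted p = 0.0461), as was BSG, the partner of both (0.45 ± 0.08, adjusted p = 0.000727). Libraries overlapped for both carriers. SLC16A1 was 91.8 to 140.2 CPM in early and 138.5 to 148.3 CPM in parental libraries, and SLC16A3 was 136 to 237.5 and 124.3 to 165 CPM. Whether these calls hold on leaving out 1 library is not given here. Of 7 tested SLC2A family genes other than SLC2A1 and SLC2A3, not all of which mainly carry hexoses, 4 were called higher and 1 lower in the acute arm. In early vs acute 1 was called higher and 4 lower. Those higher in the acute arm include SLC2A14, whose reads could belong to SLC2A3. Among all genes tested, 32.3% were called higher and 30.3% lower in acute vs parental. In early vs acute the shares were 32.1% higher and 33.9% lower.

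Among 12 tested genes of pyruvate entry into mitochondria, 8 were called lower and 3 higher in acute vs parental. The kinases that share PDK1's substrate went different ways: PDK3 fell by 1.76 ± 0.19 (adjusted p = 1.6e-06), while PDK2 rose by 1.11 ± 0.22 (adjusted p = 0.000599), from 13.7 to 29.6 CPM on average. DLAT, the acetyltransferase core of pyruvate dehydrogenase, fell by 1.92 ± 0.14 (adjusted p = 3.21e-08). Of 16 tricarboxylic acid cycle genes, 14 were called lower and none higher; FH, fumarate hydratase, fell by 1.51 ± 0.07 (adjusted p = 4.27e-10) and was still lower than parental in early cells, by 0.39 ± 0.06 (adjusted p = 0.000305). The 7 genes of the pentose phosphate pathway divided into 2 called higher and 4 lower. Beside these lists, 32.3% of all genes tested were called higher and 30.3% lower in acute vs parental. PFKFB3, which makes the activator of phosphofructokinase, rose by 0.90 ± 0.18 (adjusted p = 0.000529), from 54.0 to 56.6 CPM in parental libraries to 143.1, 77.3 and 87.1 CPM under drug alone, with FGF2 and with FL, the drug-alone library being the highest.

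**Figure D4:**
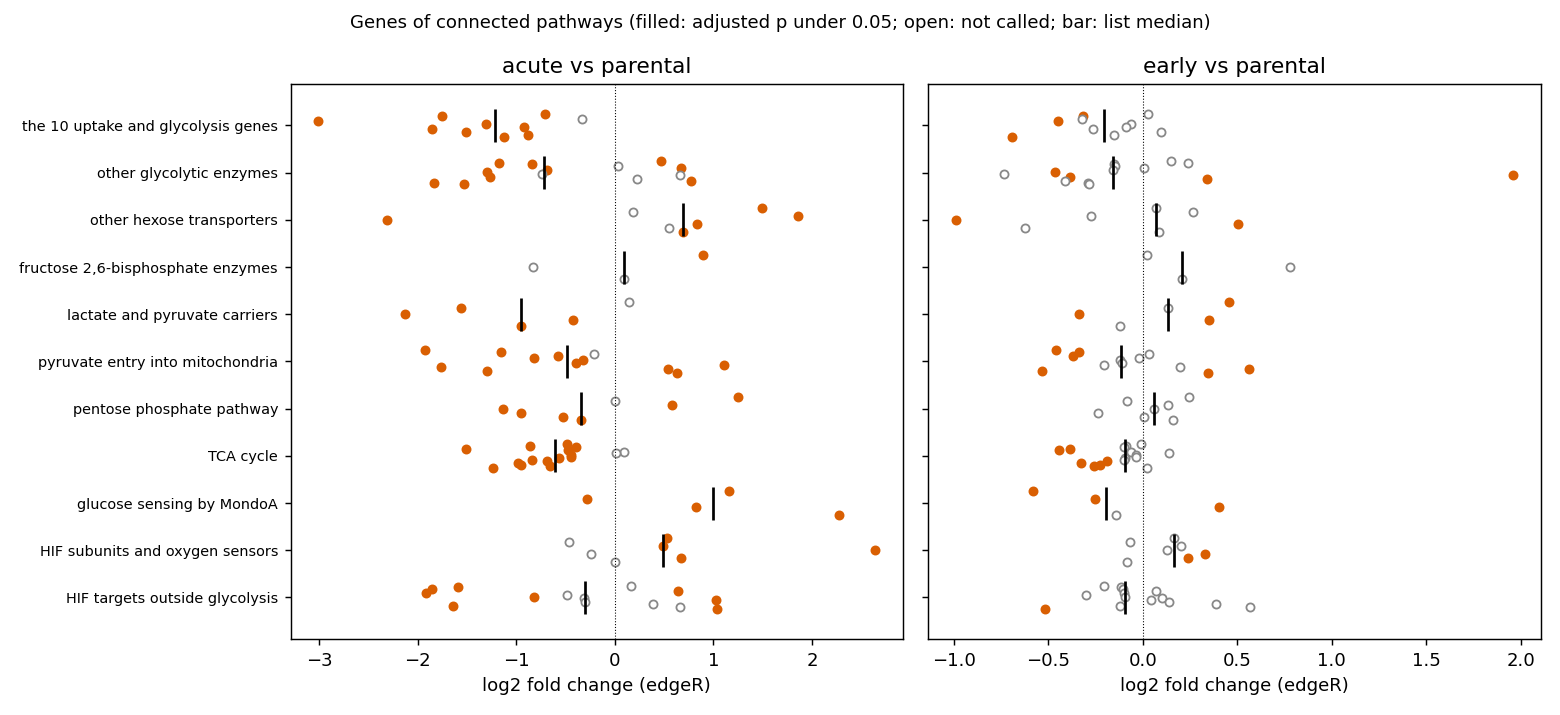
Log2 fold change of each tested gene of the pathway lists in acute vs parental (left) and early vs parental (right, on a narrower axis); filled points were called, open ones were not, and the bar is the list median. The 10 glycolysis genes have medians of −1.21 and −0.21, and the tricarboxylic acid cycle genes of −0.61 and −0.10.

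Genes that sense or set glucose use were also measured. TXNIP, which the sugar sensor MondoA turns on and whose protein limits glucose uptake, was 180.5 to 196.9 CPM in parental libraries, 747.3, 958.7 and 1020 CPM with drug alone, with FGF2 and with FL, and 147.8 to 188.8 CPM in early libraries. It rose by 2.28 ± 0.12 under acute drug (adjusted p = 1.81e-09) and was lower by 2.42 ± 0.09 in early vs acute (adjusted p = 3.64e-11). MYC had 588.3, 578.7 and 664.7 CPM in parental libraries and 89.9, 356.7 and 274.7 CPM with drug alone, with FGF2 and with FL, so the drug-alone library was the lowest; it fell by 1.34 ± 0.32 (adjusted p = 0.0022) and was higher by 1.32 ± 0.28 in early vs acute (adjusted p = 0.000877).

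Genes of the HIF pathway were called in both directions. HIF1A, whose protein is controlled mainly by oxygen, changed by −0.24 ± 0.11 in acute vs parental (adjusted p = 0.0663) and was higher in early than in parental cells by 0.33 ± 0.09 (adjusted p = 0.0144). EPAS1, which encodes HIF-2α, rose from 8.69 to 54.1 CPM on average in the acute arm (2.64 ± 0.24, adjusted p = 3.27e-07). Of 14 tested HIF targets outside glycolysis, 3 were called higher and 5 lower in acute vs parental and 7 higher and 3 lower in early vs acute; over all genes tested 32.3% were called higher and 30.3% lower in the first, and 32.1% higher and 33.9% lower in the second. BNIP3, a mitophagy receptor, fell by 1.85 ± 0.24 (adjusted p = 1.31e-05), while VEGFA, the vascular growth factor, rose by 1.04 ± 0.10 (adjusted p = 6.3e-07).

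The genes most like each member were found by the root mean square difference of centred log2 CPM over the 14 libraries, as a description. Within the 10, ALDOA and PFKP were 0.14 apart, PGK1 and ENO1 were also 0.14 apart, and PKM was 0.17 from PGK1. SLC2A3, HK2 and LDHA were farther from the closest member, at 0.36, 0.37 and 0.43. This measure also grows with the size of a gene's own changes. The root mean square of the gene's own centred log2 CPM was 0.48 for SLC2A3, 0.26 for HK2 and 1.13 for LDHA. Over all genes with a mean log2 CPM of at least 3, the closest to PGK1 was PGAM1 at 0.08, to ENO1 DCAF13 at 0.08, to LDHA CKS1B at 0.14, to PKM MSN at 0.13 and to SLC2A1 FAM162A at 0.12. Libraries of an arm share their treatment, so the 14 points are not independent.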

How the data were processed

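Poly(A) RNA was made into stranded libraries, per the labels' protocols. The authors deposited estimated counts per Ensembl gene, made with kallisto and GRCh37 per the submitters' processing notes; how transcripts were summed and whether counts were rescaled by length is not stated, and 0.054% of values above 0 were whole within 1e-06. Symbols were found for 28848 of 39293 identifiers (73.4%); the others held 4.81% to 5.73% of counts. Counts were rounded, filtered with filterByExpr (minimum count 10, minimum total 15) and all 14 libraries, in 4 arms, were fitted in R 4.3.3 by edgeR 4.0.16 (robust quasi-likelihood test after TMM scaling, Benjamini-Hochberg, 0.05). Early is the mean over both early arms. Alternatives used limma 3.58.1 (voom), DESeq2 1.42.0, other scalings, filters and sample sets, and left out each library in turn. Scripts were tested on simulated data; figures used matplotlib 3.10.9 in Python 3.11.15. Counts differed between libraries of an arm by more than sampling noise, with a mean chi-square per gene of 5.4 or more. The 10 genes, the gene lists and the tests were chosen with earlier results of these data known. Outside the 10, the rule names up to 4 genes of a list by smallest adjusted p in early vs acute or early vs parental, the isoenzymes, and TXNIP, HIF1A and MYC. Transcript lengths came from GENCODE 29, another build, and promoters from RefSeq.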

Additional observations from a re-analysis of the deposited data

Results flagged for a closer look

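SLC2A1 is singled out because the early lines differed in a direct test: relative to the same parental libraries, FGF2 early minus FL early was 0.47 on the log2 scale (adjusted p = 0.0195, edgeR). The FGF2 early arm was at 0.08 ± 0.13 and the FL early arm at −0.38 ± 0.13 against parental, and the libraries of the lines overlap. Each of the 10 genes in each early arm, 20 groups of 4 libraries, was also searched for a single library far from the other 3 (Dixon's test at its 95% critical value, which chance passes in about 1 of 20 groups), and none was found, FL early replicate 1 included.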

How the results depend on the processing

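Each of 6 comparisons was recomputed under up to 23 alternatives. Of 1360 gene values, 1252 kept direction and side of the threshold, 50 lost a call, 35 gained a call and 23 changed sign; the cause of the changes was not tested. In acute vs parental 9 to 10 genes were called lower, and in early vs acute 8 to 9 higher, under every alternative run. In early vs parental 1 gene was called higher (PKM, 0.23) without FL early replicates 1 and 4 together, and leaving out 1 library gave 0 to 4 lower. FGF2 early vs parental gave 5 lower with only its own arms in the fit and 0 to 3 on leaving out 1 library. FL early vs parental gave 4 lower with upper quartile scaling or DESeq2, 0 with no filter or only its own arms, and 1 lower and 1 higher without FL early replicates 1 and 4, with 0 to 3 lower on leaving out 1 library. FGF2 early vs FL early gave 2 lower without FL early replicates 1 and 4; on leaving out 1 library, 0 to 2 were higher and 0 to 1 lower.

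Libraries with the same replicate number were not more alike than others. Correlations of their deviations from the arm mean ran from −0.09 to 0.07, against −0.13 to 0.10 for other numbers. The labels do not say what a replicate number marks, so whether it stands for a shared culture or day is not known. With the replicate block FL early vs parental called 1 gene lower, ENO1 (−0.392, adjusted p = 0.0164), and no longer SLC2A1 (−0.394, adjusted p = 0.104) or SLC2A3 (−0.701, adjusted p = 0.0664). FGF2 early vs FL early called 0 higher, SLC2A1 being at 0.47 (adjusted p = 0.0549). No paired analysis was possible for the acute arm because its 3 libraries carry the same replicate number, 1 for each ligand state.

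Signs turned only for values that were not called. Leaving out 1 library, early vs parental ran from −0.003 to 0.093 for ALDOA and from −0.12 to 0.021 for PDK1, FGF2 early vs parental from −0.047 to 0.194 for PDK1, and FL early vs parental from −0.08 to 0.051 for ALDOA. In early vs acute HK2 ran from −0.077 to 0.204. In FGF2 early vs FL early SLC2A3 ran from −0.24 to 0.071, HK2 from −0.053 to 0.169 and PKM from −0.193 to 0.071. Without FL early replicates 1 and 4, PDK1 was 0.019 in early vs parental, ALDOA 0.033 in FL early vs parental and HK2 −0.164 in FGF2 early vs FL early. HK2 in early vs acute was −0.115 with upper quartile scaling, which moved the median of all genes by −0.12 there and by 0.11 in acute vs parental, and −0.281 against the drug-alone acute library; PKM was 0.008 in FGF2 early vs FL early with limma-voom.

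With no low-count filter, where more genes are tested, 16%, 16.5%, 10.4%, 41.4%, 38.2% and 6.76% of genes were called in early, FGF2 early and FL early vs parental, early vs acute, acute vs parental and FGF2 early vs FL early. With only its own arms FGF2 early vs parental called 45.8%, and without FL early replicates 1 and 4 FGF2 early vs FL early called 21.6%. On leaving out 1 library the 3 comparisons of early cells with parental called 16.6% to 33.2%, 20.3% to 33.9% and 9.33% to 24.6%, and FGF2 early vs FL early 8.6% to 20.8%.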
